A study of Mus musculus with 12 samples.

Results

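The globin genes and the genes of red cell production were followed across 12 whole mouse embryos carrying 2, 1 or 0 copies of the whirligig allele of Chd7. The set has 9 genes: the embryonic globins Hbb-bh1, Hbb-y and Hba-x, the alpha globin Hba-a1, the haem enzyme Alas2, the anion exchanger Slc4a1, the erythropoietin receptor Epor, and the transcription factors Klf1 and Gata1. They were chosen by name, with earlier results of these data known, as all non-control probes whose transcript identifier belongs to one of these genes. This gave 10 of the 39429 probes and 9 of the 32496 genes and identifiers on the array.

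The study looked for genes that change when Chd7, a chromatin remodelling protein, is not functional in embryos at the stage of neural crest migration. Total RNA of female embryos at E9.5 (embryonic day 9.5) was measured on 12 one-colour arrays in 3 groups of 4: homozygous (Chd7Whi/Whi, labelled knockout), heterozygous (Chd7Whi/+) and wild type. All came from the whirligig mouse line on a mixed C3HeB/FeJ background and from matings of heterozygous parents, so the mothers of all 3 groups carried the allele. The embryos had been taken out of their yolk sacs, and each group's samples are described as biological replicates. Here homozygote, heterozygote and wild type name these groups, and replicate numbers follow the order of deposit and only name an array.

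Red cells of an embryo of this age belong to the primitive erythroid lineage, which arises in the blood islands of the yolk sac, enters the circulation as the heart begins to beat, and matures in the bloodstream. These cells carry embryonic haemoglobins, made of zeta chains (Hba-x) or alpha chains (Hba-a1 and Hba-a2) with the beta-like chains of Hbb-bh1 and Hbb-y, and fill them with haem whose synthesis begins with Alas2. Gata1 and Klf1 switch on most genes of this programme. Erythropoietin, read by Epor, supports survival and expansion of the cells.

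The regulatory sequence just upstream of these genes is where Gata1 and Klf1 are known to act at several erythroid genes. Windows of 250 bases upstream of the annotated start were available from RefSeq (GRCm38.p6) for 7 of the 9 genes, not for Hbb-bh1 and Slc4a1. Each window was searched on both strands for AGATAA and TGATAA, which contain the GATA core, and for CCNCNCCC, the CACC-type motif of Klf1 with N for any base. The first pair of motifs was held by 6 of 7 windows, all but that of Gata1, against 16.6% of 32851 promoters. CCNCNCCC was held by 4 of 7 windows (Hba-x, Alas2, Epor and Gata1), against 45.9% of all promoters. The promoters of 4 genes with different roles are printed 5′ to 3′ on the strand of the gene, with matches in capitals (TTATCA and TTATCT are TGATAA and AGATAA on the opposite strand). They are Hbb-y (chr7:103853208-103853457, minus strand), Hba-x (chr11:32276350-32276599, plus strand), Alas2 (chrX:150547167-150547416, plus strand) and Epor (chr9:21963577-21963826, minus strand).
Hbb-y: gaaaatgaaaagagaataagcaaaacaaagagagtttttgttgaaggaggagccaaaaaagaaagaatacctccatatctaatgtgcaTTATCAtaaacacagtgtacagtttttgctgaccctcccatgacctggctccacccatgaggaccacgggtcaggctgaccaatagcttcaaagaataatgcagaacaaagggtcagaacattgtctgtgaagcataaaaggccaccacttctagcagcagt
Hba-x: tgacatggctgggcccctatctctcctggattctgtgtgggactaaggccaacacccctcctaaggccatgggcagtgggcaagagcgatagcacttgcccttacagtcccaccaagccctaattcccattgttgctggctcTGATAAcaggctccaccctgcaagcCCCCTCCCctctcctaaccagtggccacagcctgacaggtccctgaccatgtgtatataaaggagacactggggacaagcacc
Alas2: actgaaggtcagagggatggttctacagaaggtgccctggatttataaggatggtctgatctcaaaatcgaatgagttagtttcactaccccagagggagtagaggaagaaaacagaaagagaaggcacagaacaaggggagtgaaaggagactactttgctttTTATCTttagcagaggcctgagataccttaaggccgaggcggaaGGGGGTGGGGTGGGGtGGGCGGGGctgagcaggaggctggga
Epor: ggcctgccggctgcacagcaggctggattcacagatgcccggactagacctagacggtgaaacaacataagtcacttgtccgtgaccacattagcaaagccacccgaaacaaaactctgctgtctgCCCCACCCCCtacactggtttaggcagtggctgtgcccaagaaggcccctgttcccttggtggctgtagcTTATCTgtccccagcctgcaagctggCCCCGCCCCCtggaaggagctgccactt
The GATA-type match began 162 bases upstream of the start in Hbb-y, 108 in Hba-x, 86 in Alas2 and 54 in Epor. In Alas2, 3 of the 4 CCNCNCCC matches overlap each other in a stretch of G bases. In Epor they form 2 overlapping pairs. A match is a string of letters and was not tested for binding in these embryos.

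The scaled log2 signal used throughout is log2 of the background-corrected spot intensity minus the log2 of the 75th percentile of its array. It compares 1 probe between arrays. It does not compare the abundance of different genes, since probes differ in brightness. The share of probes well above background was 69.2% to 75.7%, no spot was saturated, and the 75th percentile lay between 1115 and 1746 intensity units. The arrays lay on 3 slides with all 3 genotypes on each, while position 1 of each slide held a wild-type embryo. Heterozygous replicate 1 stood apart in heart muscle markers, which averaged -3.95 on the log2 scale relative to their mean over all arrays, against 0.09 to 0.63 on the other 11 arrays. Left out, it changed the median log2 difference of the 9 genes between heterozygotes and wild type to 0.24, against 0.27 with it, and no call on any of the 9 genes.

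All 9 genes were detected: each of the 10 probes was well above background on 12 of 12 arrays. None of the 9 passed the test between any 2 genotypes, and all 9 varied widely between embryos of the same genotype.

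The beta-like embryonic globins had the same pattern. Hbb-bh1 (NM_008219, chromosome 7), the beta-H1 globin of primitive red cells, had scaled log2 signals of 5.63, 5.29, 6.87 and 6.63 in homozygotes, 6.77, 7.06, 6.32 and 6.76 in heterozygotes and 6.81, 6.33, 5.54 and 7.03 in wild type, replicates 1 to 4 in each. Homozygous replicates 1 and 2 and wild-type replicate 3 were low, and the remaining arrays of these groups lay in the range of the heterozygotes or near it. The log2 difference between homozygotes and wild type was -0.32 ± 0.38 (SE; 95% interval -1.16 to 0.52; adjusted p = 0.698).

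Hbb-y (NM_008221, chromosome 7), the epsilon-y globin, had 5.12, 4.85, 6.87 and 6.93 in homozygotes, 6.89, 7.13, 6.22 and 6.66 in heterozygotes and 7.03, 5.86, 5.40 and 6.98 in wild type. Here homozygous replicates 1 and 2 were the lowest, with wild-type replicate 3 next, and all groups overlapped. Homozygotes differed from wild type by -0.37 ± 0.52 (SE; 95% interval -1.51 to 0.77; adjusted p = 0.743) on the log2 scale. A second Hbb-y probe correlated with the first at r = 0.98 over the 12 arrays and gave a log2 difference of -0.61 ± 0.56 for the same comparison (adjusted p = 0.609 among all probes tested one by one).

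The alpha-like globins split the embryos alike. Hba-x (NM_010405, chromosome 11), the zeta globin whose promoter is printed above, had 3.88, 3.70, 5.24 and 4.96 in homozygotes, 5.07, 5.42, 4.60 and 4.85 in heterozygotes and 5.18, 4.57, 3.36 and 5.27 in wild type. Wild-type replicate 3 was the lowest of the 12, below both low homozygotes. Its log2 difference between homozygotes and wild type was -0.15 ± 0.44 (SE; 95% interval -1.12 to 0.82; adjusted p = 0.892).

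Hba-a1 (NM_008218, chromosome 11), an alpha globin that embryonic and adult red cells share, had 3.25, 3.21, 5.07 and 4.77 in homozygotes, 4.88, 5.56, 4.32 and 4.51 in heterozygotes and 5.25, 4.62, 3.24 and 5.19 in wild type. The 3 low arrays lay close together, at 3.21 to 3.25, and the highest was heterozygous replicate 2. Its log2 difference between homozygotes and wild type, -0.50 ± 0.53 (SE; 95% interval -1.66 to 0.66; adjusted p = 0.66), was the lowest of the 9. The probe may also bind transcripts of the near-identical Hba-a2, so its signal cannot be assigned to 1 of the 2 genes with certainty.

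Alas2 and Slc4a1, which work in haem synthesis and in the red cell membrane, followed the globins. Alas2 (NM_009653, X chromosome), the erythroid enzyme of the first step of haem synthesis, had -1.68, -1.93, -0.18 and -0.39 in homozygotes, -0.35, -0.13, -1.02 and -0.47 in heterozygotes and -0.07, -0.76, -1.97 and 0.06 in wild type. Homozygous replicates 1 and 2 and wild-type replicate 3 lay at -1.68 or lower, and every other array at -1.02 or higher. On the log2 scale, homozygotes minus wild type gave -0.36 ± 0.48 (SE; 95% interval -1.42 to 0.71; adjusted p = 0.735).

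Slc4a1 (NM_011403, chromosome 11), band 3, which exchanges chloride for bicarbonate across the red cell membrane, had -0.71, -0.87, 0.80 and 0.06 in homozygotes, 0.45, 0.88, 0.31 and -0.13 in heterozygotes and 0.69, 0.17, -1.17 and 0.73 in wild type. The same 3 arrays were the lowest, and heterozygous replicate 2 and homozygous replicate 3 were the highest. Homozygotes minus wild type gave a log2 difference of -0.28 ± 0.45 (SE; 95% interval -1.27 to 0.71; adjusted p = 0.782).

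The receptor and the transcription factors showed the pattern in a less sharp form. Epor (NM_010149, chromosome 9) had -0.82, -1.17, 0.07 and -0.57 in homozygotes, -0.25, -0.26, -0.60 and -0.56 in heterozygotes and -0.46, -0.89, -1.46 and -0.03 in wild type. Homozygous replicate 1 was here close to wild-type replicate 2, and wild-type replicate 3 was the lowest. The log2 difference between homozygotes and wild type was 0.09 ± 0.30 (SE; 95% interval -0.58 to 0.76; adjusted p = 0.91).

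Klf1 (NM_010635, chromosome 8), an activator of globin genes, had -1.97, -2.58, -0.87 and -1.48 in homozygotes, -1.30, -1.31, -1.83 and -2.20 in heterozygotes and -1.56, -1.99, -2.85 and -0.87 in wild type. Homozygous replicate 3 and wild-type replicate 4 shared the top, and heterozygous replicate 4 lay among the 3 lowest. Homozygous and wild-type means differed by 0.09 ± 0.43 (SE; 95% interval -0.85 to 1.04; adjusted p = 0.934) on the log2 scale.

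Gata1 (NM_008089, X chromosome), the central activator of the red cell lineage, had -1.57, -2.30, -0.64 and -1.34 in homozygotes, -1.15, -0.64, -1.44 and -1.63 in heterozygotes and -1.10, -1.39, -2.47 and -0.42 in wild type. Wild-type embryos held both the lowest and the highest value. For Gata1, homozygotes minus wild type gave a log2 difference of -0.12 ± 0.43 (SE; 95% interval -1.06 to 0.82; adjusted p = 0.913).

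**Figure D1:**
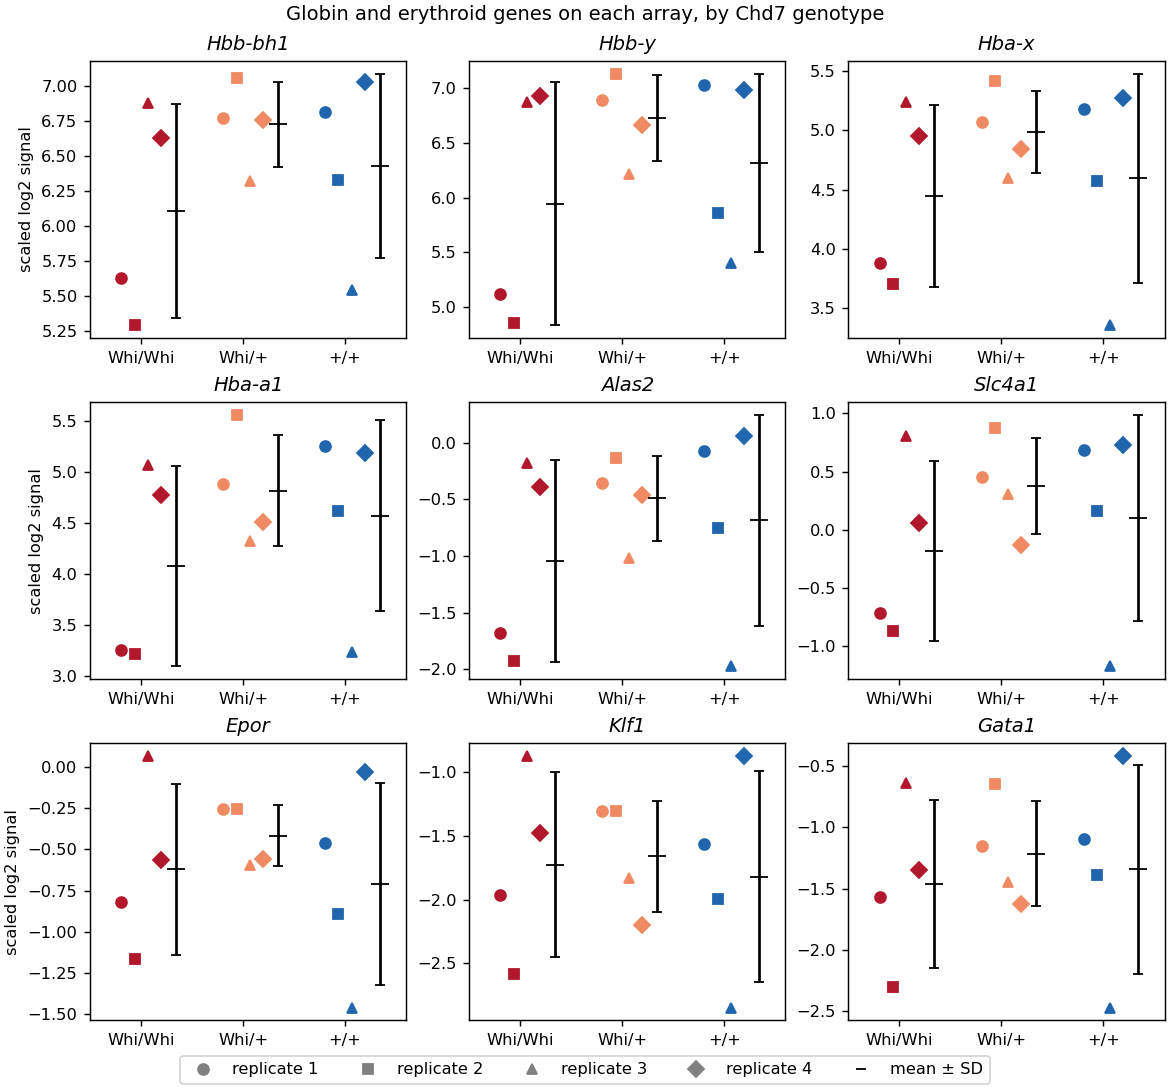
Scaled log2 signal (vertical axis, log2 units relative to the array's 75th percentile) of the 9 genes on each of 12 arrays, by Chd7 genotype, with 1 marker shape per replicate number and the mean ± SD of the 4 arrays beside the points. For all 9 genes homozygous replicate 2 and wild-type replicate 3 sit among the 3 lowest arrays and the groups overlap.

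Across the whole set, 0 of 9 genes passed the threshold (limma, Benjamini-Hochberg adjusted p under 0.05 over 22561 genes) between homozygotes and wild type, where 1.37% of all genes tested passed (0.483% higher and 0.886% lower in homozygotes). At an unadjusted p under 0.05 the count was also 0 of 9, against 16.9% of all genes. No gene of the set had arrays of the 2 genotypes that did not overlap, against 14.1% of all genes. In value, 7 of the 9 were lower and 2 (Epor and Klf1) higher in homozygotes, and the median log2 difference of the set was -0.28, against 0.01 over all genes tested. The 95% intervals ran from -1.66 at the lowest to 1.04 at the highest, and differences inside these intervals could not be told from 0 with 4 arrays per genotype.

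Between heterozygotes and wild type, 0 of 9 passed, where 0.00886% of all genes did, and 0 of 9 had an unadjusted p under 0.05, against 15.3% of all genes. All 9 were higher in value in heterozygotes, by 0.13 for Gata1 to 0.41 for Hbb-y on the log2 scale, with adjusted p between 0.623 and 0.890 and standard errors between 0.30 and 0.53. The median of the set was 0.27 and that of all genes 0.04. No gene of the set had non-overlapping arrays, against 6.69% of all genes.

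Between homozygotes and heterozygotes, 0 of 9 passed, where 0.0133% of all genes did. All 9 were lower in value in homozygotes, from -0.06 for Klf1 to -0.78 for Hbb-y, with a median of -0.55 for the set and -0.03 for all genes. The smallest p of the set was that of Hbb-bh1 (unadjusted p = 0.131, limma), and the adjusted p ran from 0.893 to 0.998. At an unadjusted p under 0.05 the count was 0 of 9, against 6.03% of all genes, and 0 of 9 had non-overlapping arrays, against 2.98%. Each pair of these comparisons shares a genotype, so their signs are not separate evidence.

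**Figure D2:**
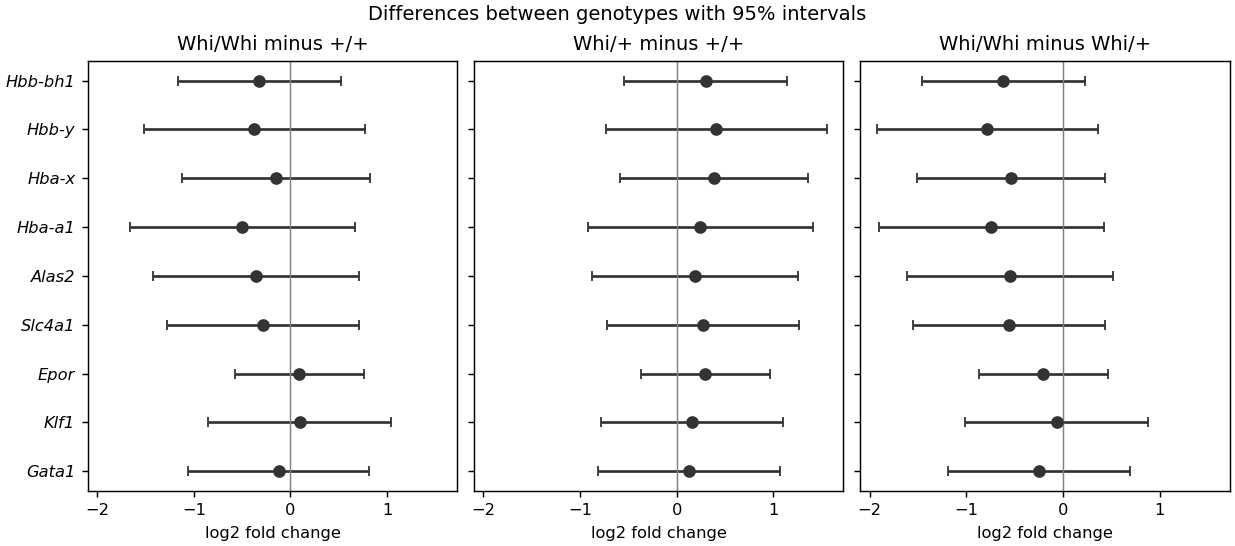
Log2 differences of the 9 genes (points) with 95% intervals (bars) for homozygotes minus wild type, heterozygotes minus wild type and homozygotes minus heterozygotes, from limma with 4 arrays per genotype. Every interval drawn includes 0.

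The size of these differences varied with the slide and with single embryos, and so did the direction for some genes in each of the 3 comparisons. In the order homozygous, heterozygous and wild type, slide 1 held 1, 2 and 1 arrays. Slide 2 held 1, 1 and 2, and slide 3 held 2, 1 and 1. The only homozygotes on slides 1 and 2 were the low replicates 1 and 2, so slides and single embryos cannot be told apart. Within slides 1, 2 and 3 the median log2 difference of the 9 genes between homozygotes and wild type was -1.30, -0.37 and -0.28. Between heterozygotes and wild type it was 0.06, 0.58 and -0.53. Homozygotes minus heterozygotes ran from -1.97 (Hba-a1) to -0.57 (Epor) on slide 1 and from -1.37 (Hbb-y) to -0.57 (Epor) on slide 2. On slide 3 it ran from -0.01 (Hbb-bh1) to 1.03 (Klf1), with Hbb-bh1 the only gene below 0. With slide as a block all 9 genes were lower in value in homozygotes than in wild type, from -0.81 to -0.11 with a median of -0.50, and 1 had an unadjusted p under 0.05 (smallest adjusted p = 0.241, limma). In that fit 2 of the 9 had an unadjusted p under 0.05 between homozygotes and heterozygotes (smallest adjusted p = 0.654, limma). The share of all genes under 0.05 was not computed for the fit with slide as a block. Its counts of 1 and 2 genes therefore cannot be set against a background. The heterozygote minus wild type differences in that fit ran from -0.07 to 0.19. With array weights the homozygote minus wild type differences ran from -0.19 to 0.31 with a median of 0.00 (smallest adjusted p = 0.687). Since position 1 held wild-type embryos alone, a fit with position as a block compares the mutants with wild type through wild-type replicate 3 only, one of the 3 low embryos. It gave a median of 1.09 for homozygotes minus wild type and 1.75 for heterozygotes minus wild type, with 0 of 9 called in each (smallest adjusted p 1.0). Leaving out homozygous replicate 2, 1 of the 3 low embryos, gave a median of -0.01 for homozygotes minus wild type. Leaving out wild-type replicate 3 gave -0.62 for homozygotes minus wild type and -0.15 for heterozygotes minus wild type, with 0 of 9 called. Without wild-type replicate 4 the homozygote minus wild type differences of the 9 genes ran from -0.29 to 0.41.

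The spread between embryos of 1 genotype was larger for these genes than for most genes on the array. The within-genotype SD of the 9 genes was 0.48 for Epor to 0.84 for Hba-a1 on the log2 scale, with a median of 0.70, while the median over all genes tested was 0.21. Between 89.9% (Epor) and 98.2% (Hba-a1) of all genes had a lower SD. The 3 genotype means took up 1.20% (Klf1) to 18.7% (Hbb-bh1) of a gene's variance over the 12 arrays, with a median of 11.7%. The median over all genes was 23.5%. These shares are not corrected for the number of means, and 3 means take up some variance even where genotypes do not differ.

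In linear terms the highest homozygote had 2.36 times (Epor) to 4.23 times (Hbb-y) the signal of the lowest homozygote. Among heterozygotes this ratio was 1.27 (Epor) to 2.36 (Hba-a1), and among wild-type embryos 2.70 (Epor) to 4.15 (Gata1). For each of the 9 genes the SD was smallest in heterozygotes, with a median over the genes of 0.77 in homozygotes, 0.39 in heterozygotes and 0.85 in wild type. Over all genes tested, the SD was smallest in heterozygotes for 25.0% of genes, and its median was 0.16 in homozygotes, 0.22 in heterozygotes and 0.20 in wild type. The 9 genes moved together and 4 arrays give an SD little precision, so the difference in spread between genotypes is given as a description with no test. The genotype means of Hbb-y, at 5.94 ± 1.11 in homozygotes, 6.73 ± 0.39 in heterozygotes and 6.32 ± 0.82 in wild type (SD, n = 4), show it. The mean was highest in heterozygotes for 9 of 9 genes and lowest in homozygotes for 7 of 9, with wild type lowest for Epor and Klf1, and no neighbours in that order differed beyond their spread.

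**Figure D3:**
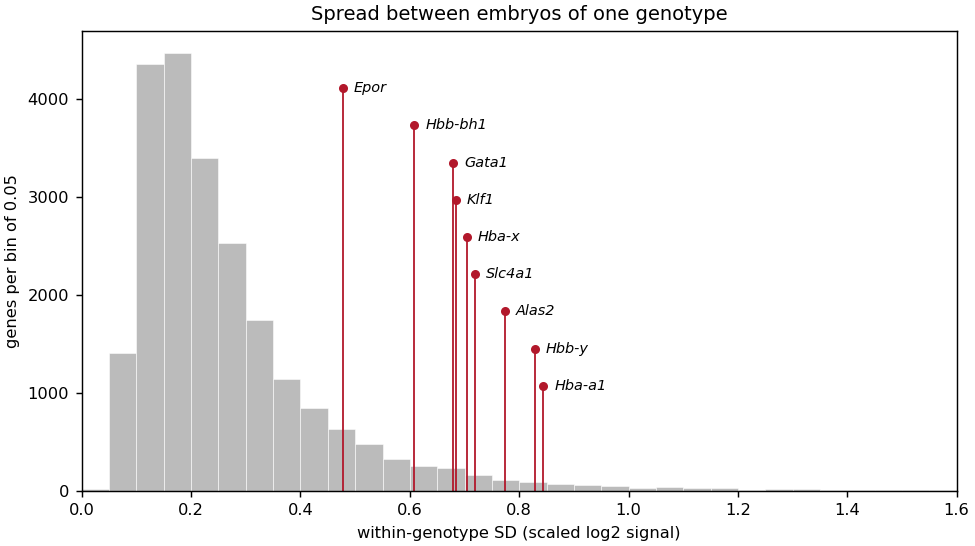
Histogram of the within-genotype SD of scaled log2 signal (horizontal axis) over the 22561 genes tested (vertical axis, genes per bin of 0.05), with a line at the SD of each of the 9 genes; the height of a line has no meaning. The 9 genes lie between 0.48 and 0.84, to the right of the median of 0.21.

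The 9 genes varied together over the embryos. Homozygous replicate 2 and wild-type replicate 3 were among the 3 lowest of 12 arrays for 9 of 9 genes, and homozygous replicate 1 for 6 of 9. Wild-type replicate 4 was among the 3 highest for 9 of 9, heterozygous replicate 2 for 7 and homozygous replicate 3 for 6. The mean of the 3 embryonic globins, as a log2 deviation from its mean over all arrays, was -0.93, -1.19, 0.52 and 0.36 in homozygotes, 0.44, 0.73, -0.10 and 0.28 in heterozygotes and 0.53, -0.22, -1.04 and 0.62 in wild type. Each genotype with low embryos also held embryos at the level of the heterozygotes.

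Over the 12 arrays the 36 pairs of the 9 genes had Pearson's r between 0.79 and 0.98 (median 0.92) and Spearman's rho between 0.74 and 0.98. With genotype means removed r was 0.81 to 0.99, and without the 2 arrays farthest from the median of the first gene of a pair it was 0.63 to 0.98. Because the 3 low embryos stood below the other 9 in embryonic globin (-0.93 and lower, against -0.22 and higher), the correlation was also taken over those 9 arrays, where it was 0.53 to 0.96 (median 0.80). These correlations describe 12 libraries on 3 shared slides and carry no p-value. The embryonic globin mean had r = -0.22 with the 75th percentile of the array, 0.07 with the share of probes above background and 0.16 with the slope of the spike-in controls. In RNA of whole embryos, fewer red cells and less RNA per red cell cannot be told apart.

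**Figure D4:**
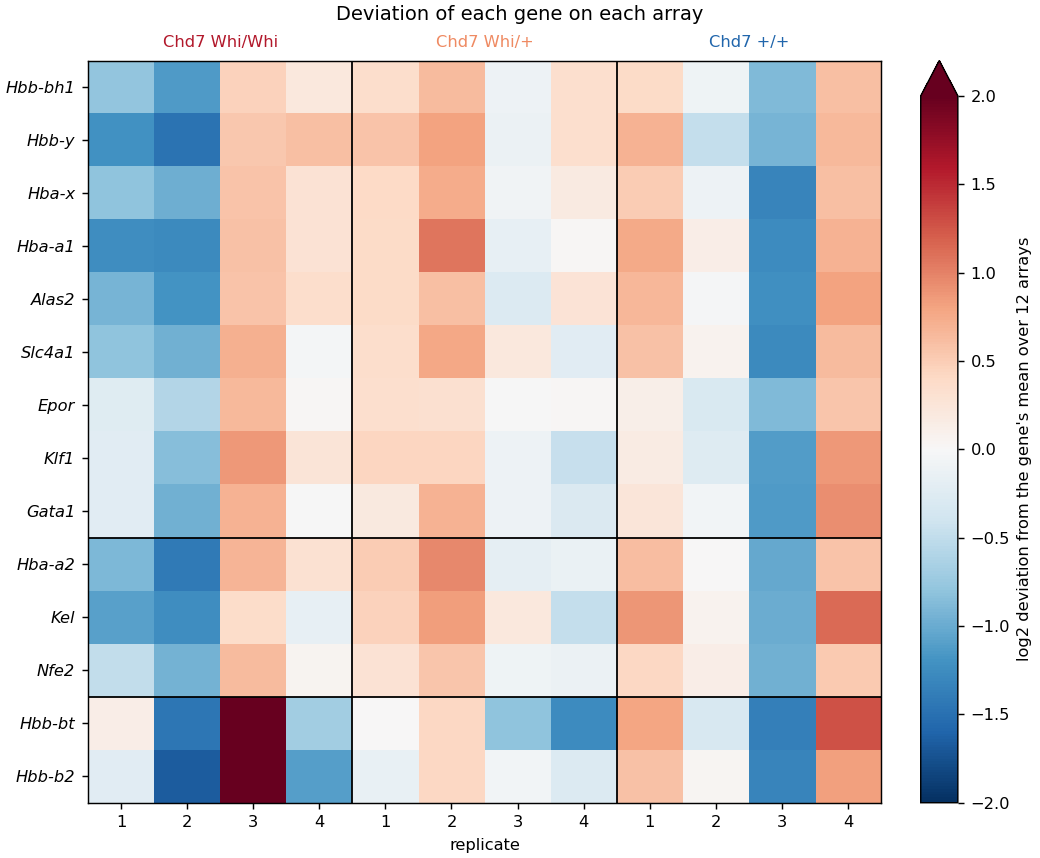
Log2 deviation of each gene from its own mean over 12 arrays (colour, blue low and red high, values above 2.0 in the darkest red), with arrays in columns by genotype and replicate; the upper block holds the 9 genes, the middle block 3 of the genes most like them and the lower block the adult beta globins Hbb-bt and Hbb-b2. Homozygous replicates 1 and 2 and wild-type replicate 3 are blue through the upper 2 blocks, while the adult beta globins are high on homozygous replicate 3.

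The genes whose pattern was most like theirs were searched among 15017 genes with a symbol, by Pearson's r over the 12 arrays and, in turn, over deviations from genotype means. For the mean of the embryonic globins, Hba-a2, an alpha globin, came first over the arrays (r = 0.97), followed by Nfe2, an erythroid and megakaryocytic transcription factor (0.94). Over deviations Hba-a2 was again first (0.97), and Nfe2 had 0.95. The median r over these 15017 genes was 0.06. Alas2 likewise had Hba-a2 (0.96) and Nfe2 (0.96) nearest. Slc4a1 had Nfe2 nearest (0.98), and over deviations Kel, a surface protease that carries a blood group antigen (0.98). With the 3 low embryos left out, r with the embryonic globin mean was 0.86 for Hba-a2, 0.74 for Nfe2 and 0.58 for Kel.

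Hba-a2, Nfe2 and Kel are all in the lists of red cell genes. Nfe2 had scaled log2 signals of -3.04, -3.50, -1.92 and -2.49 in homozygotes, -2.27, -1.99, -2.64 and -2.66 in heterozygotes and -2.13, -2.43, -3.51 and -2.03 in wild type. Kel had -4.04, -4.20, -2.58 and -3.12 in homozygotes, -2.49, -2.11, -2.74 and -3.43 in heterozygotes and -2.07, -2.89, -3.94 and -1.81 in wild type. In both, the low arrays were the same 3 embryos as for the globins. Neither gene, nor Hba-a2, passed the threshold in any of the 3 comparisons. The log2 difference between homozygotes and wild type was -0.21 ± 0.37 for Nfe2 (adjusted p = 0.797) and -0.81 ± 0.49 for Kel (adjusted p = 0.418).

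The remaining red cell genes were read from 7 lists (other globins, haem synthesis, membrane and skeleton, transcription factors, erythropoietin signalling, iron, other red cell proteins) holding 106 genes, of which 95 were tested. None of the 95 passed in any comparison. Unadjusted p under 0.05 was reached by 9 between homozygotes and wild type, 9.47% against 16.9% of all genes, with a median log2 difference of -0.01. Between heterozygotes and wild type it was 14 (14.7% against 15.3%), and between homozygotes and heterozygotes 1 (1.05% against 6.03%). Following the embryonic globin mean at r of 0.8 or more were 15 of the 95, or 15.8%. The share was 0.213% among the 15017 genes with a symbol and a value on every array, without the 9 genes. The 95 were not held to a value on every array.

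Those 15 came from 5 of the 7 lists. Of 4 other globins tested, Hba-a2 and Hbq1b followed. Of 19 membrane and skeleton genes 8 followed the embryonic globins, among them Kel, and also Epb42, Add2, Rhd, Kcnn4 and Ank1, which are named here after their values were seen. A positive r was held by 15 of the 19. It was negative for Sptb (-0.43) and, also named after their values were seen, for Aqp1 (-0.36), Tmod1 (-0.35) and Slc2a1 (-0.04). The mean of that list had r = 0.87 and rho = 0.91 with the embryonic globin mean, 0.74 without the 2 farthest arrays and 0.64 over the 9 arrays. Of 16 transcription factors and partners only Nfe2 and Gfi1b followed at 0.8, of 16 haem genes only Slc25a37, the mitochondrial iron importer, of 17 other red cell proteins Blvrb, Rhd and Cited4, and of 12 erythropoietin signalling and 12 iron genes none. Hbq1b, Gfi1b, Slc25a37, Blvrb and Cited4 were also named after their values were seen. Rhd is counted in both of its lists.

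The genes of these lists with the smallest p between homozygotes and wild type did not pass. Kit, the stem cell factor receptor on progenitors, had a log2 difference of 0.48 ± 0.12 (adjusted p = 0.0895), Hmox1, which breaks haem down, 0.44 ± 0.15 (0.183), and Ppox, an enzyme near the end of haem synthesis, 0.27 ± 0.09 (0.193). Runx1, a factor of blood formation, had 0.34 ± 0.12 (adjusted p = 0.200) and Zbtb7a, a repressor of fetal globin genes in human red cells, 0.28 ± 0.14 (0.327). Car2, red cell carbonic anhydrase, had -0.46 ± 0.17 (adjusted p = 0.222), Gmpr 0.27 ± 0.19, Sptb, beta spectrin, 0.65 ± 0.35, the adaptor Gab1 0.30 ± 0.13, the iron regulatory protein gene Ireb2 0.27 ± 0.18 and the iron transporter gene Slc11a2 -0.20 ± 0.16. Sptb and Ireb2 were each well above background on 11 of 12 arrays. Epo, the ligand of Epor and named after its values were seen, was well above background on 10 of 12 arrays and had 0.37 ± 0.26 (adjusted p = 0.486).

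Adult beta globins did not share the pattern on every array. Hbb-bt, of the adult beta locus, had scaled log2 signals of -2.55, -4.13, 0.59 and -3.38 in homozygotes, -2.67, -2.27, -3.49 and -3.95 in heterozygotes and -1.89, -2.99, -4.05 and -1.41 in wild type. Homozygous replicate 3 was the highest of the 12, and the next array was wild-type replicate 4. Hbb-b2, named after its values were seen, had -2.98, -4.41, 0.19 and -3.85 in homozygotes, -2.89, -2.32, -2.80 and -3.02 in heterozygotes and -2.16, -2.71, -4.06 and -1.92 in wild type, again with homozygous replicate 3 far above the rest. The copies of this locus are near-identical, and their signals cannot be separated with certainty. The log2 difference of Hbb-bt between homozygotes and wild type was 0.22 ± 0.90 (adjusted p = 0.926). Hba-a2, with 4.94, 4.41, 6.51 and 6.14 in homozygotes, 6.34, 6.79, 5.65 and 5.69 in heterozygotes and 6.44, 5.84, 4.81 and 6.40 in wild type, kept to the pattern of Hba-a1. Its log2 difference between homozygotes and wild type was -0.37 ± 0.49 (adjusted p = 0.727).

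Markers of the yolk sac and visceral endoderm moved the opposite way from the embryonic globins. The mean log2 deviation of the 12 genes of this list was 2.25, 1.11, -1.82 and -1.22 in homozygotes, -0.18, 0.32, 0.45 and 0.85 in heterozygotes and -1.29, 1.04, 0.00 and -1.50 in wild type. Homozygous replicates 1 and 2, low in embryonic globin, were the highest in these markers, whereas wild-type replicate 3, also low in globin, was near the middle. Of the 12 genes 11 had a negative r with the embryonic globin mean, all but Foxa2. The list mean had r = -0.66 and rho = -0.71 over the 12 arrays, -0.79 without the 2 farthest arrays, -0.80 over deviations from genotype means and -0.61 over the 9 arrays without the 3 low embryos. Ttr, transthyretin, ran from -0.82 to 3.54 in homozygotes, from 0.22 to 2.09 in heterozygotes and from -1.03 to 1.79 in wild type, and did not pass between homozygotes and wild type (1.10 ± 0.92, adjusted p = 0.566). Dab2, an endocytic adaptor of visceral endoderm, had 0.31 ± 0.24 (adjusted p = 0.538). None of the 12 was called in any comparison, and 10 of the 12 were well above background on all arrays. These genes are also expressed in liver and gut endoderm of the embryo itself, and the part of such tissue in the globin signal was not tested.

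**Figure D5:**
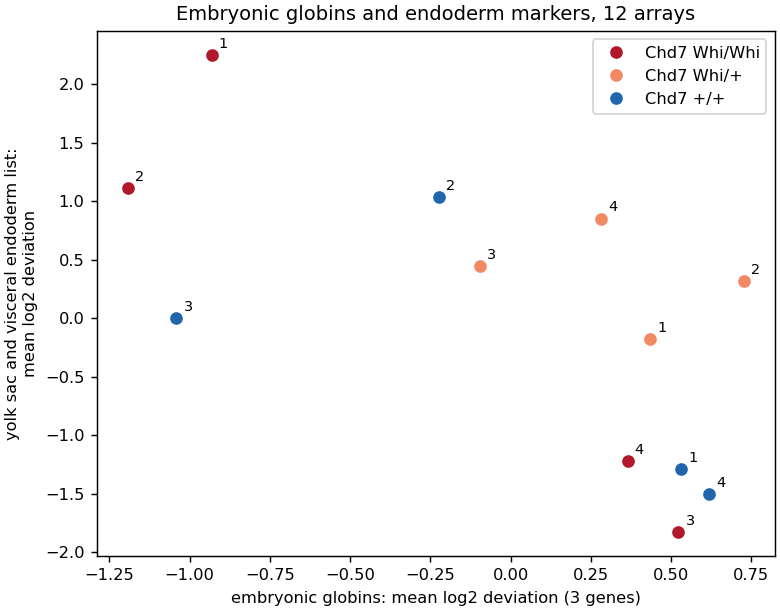
Mean log2 deviation of 12 yolk sac and visceral endoderm markers (vertical axis) against that of the 3 embryonic globins (horizontal axis), 1 point per array, coloured by genotype and numbered by replicate. Homozygous replicates 1 and 2 lie at the upper left, homozygous replicates 3 and 4 and wild-type replicates 1 and 4 at the lower right, and wild-type replicate 3 at the left near 0.

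Markers of other blood and vessel cells varied in how they followed the globins. The megakaryocyte list (7 tested of 12) had a list mean with r = 0.71 and rho = 0.79, 0.74 without the 2 farthest arrays and 0.73 over the 9 arrays. Its range was -0.41 to 0.10 in homozygotes, -0.28 to 0.35 in heterozygotes and -0.41 to 0.77 in wild type. The progenitor list (9 tested) had r = 0.64, which was 0.15 over the 9 arrays. The embryonic macrophage list had r = -0.32 (7 tested of 14 on the array), endothelium 0.14 (13 genes), heart muscle -0.27 (14) and hypoxia response -0.01 (18), and none of their genes reached r of 0.8. Their part in the globin signal was not tested.

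In these lists 2 genes passed between homozygotes and wild type, where 1.37% of all genes tested passed. They were 1 of 9 progenitor genes and 1 of 7 macrophage genes tested. None passed of 7 megakaryocyte, 13 endothelium, 14 heart muscle and 18 hypoxia response genes tested. Cd34, a surface protein of blood progenitors and endothelium, had 1.53, 1.43, 1.98 and 1.96 in homozygotes, 2.49, 2.81, 2.11 and 1.69 in heterozygotes and 3.0, 2.75, 2.52 and 2.92 in wild type. The homozygous and wild-type arrays did not overlap, which held for 14.1% of all genes tested. The log2 difference was -1.07 ± 0.23 (limma adjusted p = 0.0431), with -0.69 ± 0.19 on a second probe (adjusted p = 0.111 among all probes). Mrc1, a mannose receptor of macrophages and some endothelium, had -2.69, -3.04, -3.51 and -3.68 in homozygotes, -4.69, -4.01, -3.96 and -3.57 in heterozygotes and -4.80, -3.94, -4.70 and -4.85 in wild type. It rose by 1.34 ± 0.29 (adjusted p = 0.0447). Of the 9 progenitor genes tested, 4 were lower and 5 higher in value in homozygotes, with a median log2 difference of 0.19, and of the 7 macrophage genes tested 5 were higher, with a median of 0.33. Each call was kept in 10 of 24 alternative settings, with adjusted p of up to 1.0. Leaving out single arrays ended it in 10 of 12 cases for Cd34, where the log2 difference stayed between -1.16 and -0.97, and in 8 of 12 for Mrc1, where it stayed between 1.16 and 1.55. With normexp background correction it was -0.97 for Cd34 (adjusted p = 0.131) and 0.57 for Mrc1 (adjusted p = 0.525). With the embryonic globin mean they had r of 0.52 and -0.45. Other genes of these lists with small p did not pass: Itga2b, the platelet integrin and an early blood marker, at 0.79 ± 0.20 (adjusted p = 0.0809), the vessel genes Emcn at -0.36 ± 0.12 (0.173) and Sox17 at -0.54 ± 0.18 (0.174), the platelet receptor gene Gp1bb at -0.59 ± 0.35 (0.417), and the hypoxia response genes Pdk1, a kinase that holds back pyruvate dehydrogenase, at 0.79 ± 0.21 (0.100) and Pfkl, a glycolytic enzyme gene, at 0.77 ± 0.21 (0.108). Itga2b was well above background on 10 of 12 arrays. Of the 18 hypoxia response genes, 16 were higher in value in homozygotes than in wild type. Their median log2 difference was 0.40, against 0.01 over all genes. Of the heart list, Nkx2-5 had 0.47 ± 0.44 (adjusted p = 0.610), and Pln, well above background on 7 arrays, did not pass (adjusted p = 0.0726).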

How the data were processed

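Spots were read in 1 channel (Cy3) with Agilent Feature Extraction 10.7.3.1, per the file headers. The submitters' processing notes name the same software and limma. The intensity values are the authors' deposited processed signals, background-corrected within each array and not scaled between arrays, per the file headers. The deposited value table held the same intensities. Position labels and slides come from the file headers.

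From these, log2 of the signal minus that of the array's 75th percentile was computed, without control spots (1377) and outlier spots (171 to 386 per array). Spots of a probe were averaged on the log2 scale. Probes were named through RefSeq (GRCm38.p6) by transcript accession (26055 of 39429), and the brightest probe of a gene was used. A gene entered the test if 1 or more genotypes had it well above background throughout and 9 or more arrays gave a value (22561). Differences came from lmFit and eBayes of limma 3.58.1 (R 4.3.3), fitted to all 12 arrays with 1 mean per genotype, with Benjamini-Hochberg adjustment and a threshold of 0.05, and the procedure was tested on simulated data. P-values set each difference against the spread between these embryos, pooled over the 3 genotypes and drawn by eBayes towards that of all genes. The number of arrays limits precision. The level of Chd7 is not analysed here.

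The genes and the 14 other lists were chosen with earlier results of these data known. Named are all 9 genes, list members past the threshold (up to 4 a list) or otherwise the 2 with the smallest p between homozygotes and wild type, the 3 genes most like the embryonic globin mean, Alas2 and Slc4a1, and others marked as chosen later. A few genes that this rule takes are not reported here. The alternatives were normexp background correction (offset 50), quantile normalization, no filter or a stricter one on dim probes, single probes in place of genes, blocks for slide, array position or title number, a fit of only 2 genotypes, a trended robust variance, array weights, and each array left out in turn. Figures were drawn with matplotlib 3.10.9.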

Additional observations from a re-analysis of the deposited data

How the results depend on the processing

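In 24 alternative settings per comparison, none of the 9 genes was called (0 of 216 values in each of 3 comparisons), with smallest adjusted p of 0.241, 0.566 and 0.654 for homozygotes minus wild type, heterozygotes minus wild type and homozygotes minus heterozygotes. The sign of a gene's difference changed in 23, 14 and 8 of the 216 values, each with neither value past the threshold. With array position as a block the median of the 9 genes was 1.09 for homozygotes minus wild type and 1.75 for heterozygotes minus wild type, resting on wild-type replicate 3. With 1 array left out it ran from -0.62 to -0.01, from -0.15 to 0.48 and from -0.84 to -0.29 in the 3 comparisons.

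Of all genes, 309 were called between homozygotes and wild type (109 higher), 93 with normexp (9 higher), 186 with no filter on dim probes, 20 with array position as a block, 17 with title number as a replicate block, 521 with array weights and 114 to 452 with 1 array left out. Between heterozygotes and wild type 2 were called. It was 1 with normexp, the filter on all arrays, a fit of only 2 genotypes or a trended robust variance, 5 with no filter or slide as a block, 0 with title number as a replicate block and 0 to 3 with 1 array left out. Between homozygotes and heterozygotes 3 were called. It was 0 with normexp, array position, title number as a replicate block or a fit of only 2 genotypes, 5 with a trended robust variance, 8 with array weights and 1 to 6 with 1 array left out. The cause was not tested. Normexp moved the median of all genes between homozygotes and wild type to -0.10, against 0.01. Deviations of arrays of different genotype with the same title number correlated at r = -0.32 to 0.29 (11 pairs, median 0.02). With other title numbers r was -0.34 to 0.24 (37 pairs, median 0.02), so pairing between genotypes was not shown by the data. Wild-type replicates 2 and 3 share title number 50, and heterozygous replicates 3 and 4 share 53. Pairs within a genotype were not part of this check, so the independence of these arrays was not tested. Whether a number marks a litter is not stated in the labels. Title numbers 33 and 69 each held 1 homozygous array and no other. The fit with title number as a block therefore compares homozygotes with the other genotypes through homozygous replicates 2 and 3 only. In that fit Cd34 (limma adjusted p = 0.357) and Mrc1 (limma adjusted p = 0.245) were no longer called.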
